A study of Mus musculus with 28 samples.

Results

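The mitochondrial genome of the mouse encodes 13 mRNAs, 2 rRNAs and 22 tRNAs, and 9 of these 37 genes are described here in hippocampal CA1, whose pyramidal neurons send the main output of the hippocampus. The 9 were a given list, mt-Nd1, mt-Nd2, mt-Nd4, mt-Nd5, mt-Nd6, mt-Cytb, mt-Co1, mt-Rnr1 and mt-Rnr2, kept where the gene had counts in every library. All 9 were kept, 7 mRNAs and 2 rRNAs, of 48709 gene identifiers in the files, and they held 99.7488% of all counts on the mitochondrial chromosome.

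The 28 libraries of polyadenylated RNA fell into 9 from CamkdeltaC transgenic mice given vorinostat, 9 from CamkdeltaC transgenic mice given vehicle and 10 from wildtype littermates given vehicle. Vorinostat, an inhibitor of histone deacetylases, or its vehicle was given in drinking water for 4 weeks from 2 months of age, and the tissue was taken at 3 months. Both sexes were used, and no sex is given per library. As background, the transgene encodes the delta C form of the kinase CaMKII, which calcium activates, and is driven in heart muscle, so a change in brain would lie outside the tissue that makes it. A wildtype group on vorinostat was not analysed here. No label ties a library to a mouse of its own. The p-values therefore reflect how far these samples differ among themselves, part of which may be technical.

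As background, both strands of the circular mitochondrial DNA are transcribed by the polymerase Polrmt, with Tfam and Tfb2m, into long precursors that cover many genes. The tRNAs lie between most mRNAs and rRNAs, and their excision by the mitochondrial ribonucleases P and Z releases the neighbouring RNAs. The mRNAs then receive short poly(A) tails, and their levels depend on their stability as much as on transcription. The products are core subunits of complex I (the mt-Nd genes), complex III (mt-Cytb), complex IV (the mt-Co genes) and ATP synthase (the mt-Atp genes), while mt-Rnr1 and mt-Rnr2 are the rRNAs of the small and large mitochondrial ribosomal subunits. In neurons, the respiratory chain supplies most of the energy used for synaptic signalling.

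The 3′ ends of the 7 mRNAs show how they end, with the stop codon, or the single base of it that the DNA encodes, in capitals. Sequences are from the GENCODE transcripts of GRCm38, the assembly also called mm10, printed 5′ to 3′ on the strand of the gene. They lie at chrM:3678-3707, chrM:4922-4951, chrM:6843-6872, chrM:11515-11544, chrM:13536-13565 and chrM:15259-15288 on the plus strand, in the order mt-Nd1, mt-Nd2, mt-Co1, mt-Nd4, mt-Nd5 and mt-Cytb, and at chrM:13552-13581 on the minus strand for mt-Nd6.
mt-Nd1: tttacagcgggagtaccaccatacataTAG
mt-Nd2: ctacccctagccccccaactaattaccTAG
mt-Co1: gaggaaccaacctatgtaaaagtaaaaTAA
mt-Nd4: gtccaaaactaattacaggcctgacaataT
mt-Nd5: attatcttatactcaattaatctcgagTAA
mt-Cytb: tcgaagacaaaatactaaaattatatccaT
mt-Nd6: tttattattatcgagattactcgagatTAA

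Genes mt-Nd1 and mt-Nd2 ended in TAG, and mt-Co1, mt-Nd5 and mt-Nd6 in TAA. Genes mt-Nd4 and mt-Cytb ended in a single T, and as background such a codon is completed to a stop by the poly(A) tail. The last 14 bases of mt-Nd5 and of mt-Nd6 are the same stretch of DNA read on opposite strands. The library kit does not keep the strand, so reads of mt-Nd6 and of antisense RNA from the heavy strand transcript there cannot be told apart. Gene mt-Nd6 was also apart in its bases, with 22.2% A and 28.1% G, while the other 8 genes had 29.5 to 38.2% A and 8 to 16.2% G.

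The rRNAs are shown around their longest encoded run of A, in capitals, since the RNA was selected by poly(A) and as background mitochondrial rRNAs carry at most very short tails. The stretches are chrM:681-740 for mt-Rnr1 and chrM:1464-1523 for mt-Rnr2, both on the plus strand.
mt-Rnr1: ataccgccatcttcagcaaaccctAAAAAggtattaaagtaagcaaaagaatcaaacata
mt-Rnr2: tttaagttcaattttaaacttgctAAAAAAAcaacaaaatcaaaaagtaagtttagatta
The longest runs were 5 A in mt-Rnr1 and 7 A in mt-Rnr2, against 8 A in mt-Nd2. What share of the rRNA molecules the selection kept cannot be read from these files.

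The counts had a gap in the middle of the chromosome. Genes mt-Co2 and mt-Co3 (subunits of complex IV), mt-Atp8 (ATP synthase) and mt-Nd4l (complex I) had 0 counts in all 28 libraries, and mt-Atp6 and mt-Nd3 had 1 count each in all. These 6 mRNAs lie next to each other between mt-Co1 and mt-Nd4. The same stretch has a near-identical nuclear copy on chromosome 1, annotated as 7 pseudogenes on the minus strand from 24611535 to 24616197. The copies were identical to their genes at 681 of 681 bases for mt-Co2 (Gm28661), 678 of 678 for mt-Atp6 (Gm10925), 783 of 783 for mt-Co3 (Gm28437) and 294 of 294 for mt-Nd4l (Gm10222). The copy of mt-Nd3 (Gm28438) matched 344 of 345 bases, and the copy also took in bases 1 to 876 of mt-Nd4 (Gm28439, all 876 identical) and bases 1054 to 1545 of mt-Co1 (Gm29216, 486 of 492 identical).

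The edges of the copied stretch are shown because they fall inside mt-Co1 and mt-Nd4, and the start of mt-Nd3 because its copy is the only one of the 7 with more than 20 counts in any library. In the first 2 pairs of lines, differing bases are in capitals, and in mt-Nd4 the capitals mark the first bases outside the copy. The stretches are chrM:6381-6440 (mt-Co1) with chr1:24616138-24616197 on the minus strand (Gm29216), chrM:9459-9518 (mt-Nd3) with chr1:24613060-24613119 on the minus strand (Gm28438), and chrM:11013-11072 (mt-Nd4).
mt-Co1: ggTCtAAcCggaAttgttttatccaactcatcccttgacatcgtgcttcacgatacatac
Gm29216: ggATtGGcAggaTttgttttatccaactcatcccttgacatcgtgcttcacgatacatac
mt-Nd3: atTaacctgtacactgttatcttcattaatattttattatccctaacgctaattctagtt
Gm28438: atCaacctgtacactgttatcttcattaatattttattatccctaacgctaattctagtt
mt-Nd4: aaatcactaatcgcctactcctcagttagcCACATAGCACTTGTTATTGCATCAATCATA

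Counted from the first base of the gene, the 6 differences between mt-Co1 and Gm29216 were T1056A, C1057T, A1059G, A1060G, C1062A and A1066T, all at the edge of the copy, and the difference between mt-Nd3 and Gm28438 was T3C. Within the copied stretch, then, a read of 50 bases can mostly not be assigned to the mitochondrial or the nuclear gene. Every 50-base window of each mitochondrial gene was compared with all annotated transcripts of other genes. The share of windows also found elsewhere was 100% for mt-Co2, 99.9% for mt-Co3, 99.5% for mt-Atp6, 98.8% for mt-Nd4l and 98% for mt-Nd3. It was 62.2% for mt-Nd4, 51.1% for mt-Co1, 8.19% for mt-Nd2, 7.61% for mt-Nd5 and 1.04% for mt-Rnr2, and 0% for mt-Nd1, mt-Nd6, mt-Cytb and mt-Rnr1. It was also 0% for mt-Atp8, whose windows were found in no annotated transcript of another gene. The sources used here do not state how reads matching several places were counted. The levels of mt-Co1 and mt-Nd4 are therefore uncertain, since only 731 of 1496 and 502 of 1329 of their windows were not shared in this way. Copies in the genome outside annotated transcripts were not examined, so a window not shared here, as in mt-Atp8, may still occur elsewhere.

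**Figure D1:**
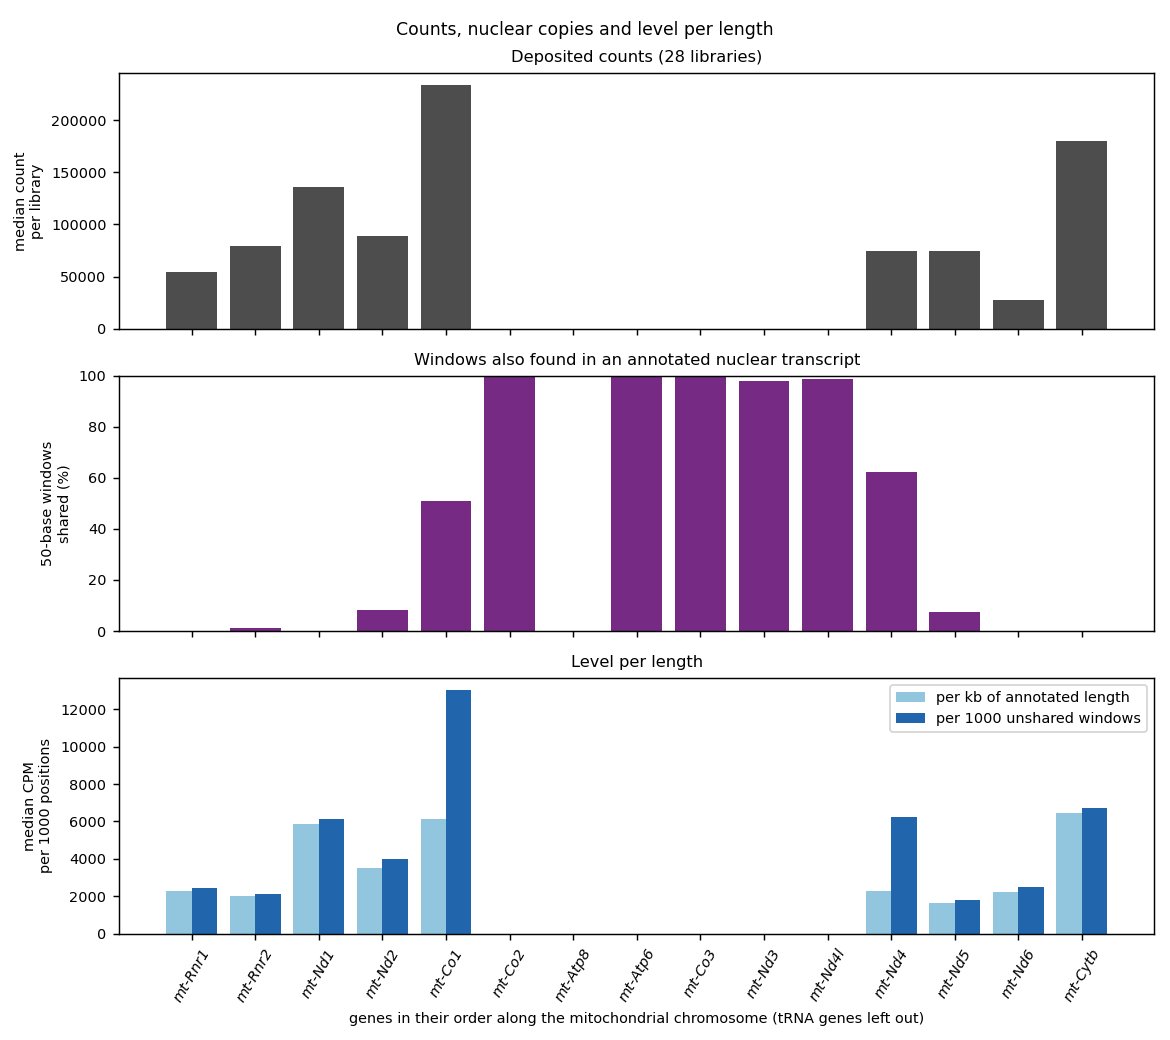
Genes of the mitochondrial chromosome in their order, without the tRNAs: median count per library (top), percent of 50-base windows that also occur in an annotated transcript of another gene (middle), and median CPM per kilobase for the 9 kept genes (bottom), by annotated length (light) and by windows not shared (dark). The 6 mRNAs without counts lie together, 5 of them with 98 to 100% of windows shared, and the level of mt-Co1 and mt-Nd4 depends on the length used.

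The 9 genes held 2.83 to 7.46% of all counts of a library, with a median of 3.87%. Library totals ran from 20230085 to 33191857 counts. For the 9 genes the smallest count in a library was 19243, for mt-Nd6, and the largest 403036, for mt-Co1, so their counting error is small beside the spread between libraries. The 22 tRNAs held 0.2512% of mitochondrial counts, and 3 of them, mt-Tp, mt-Tl1 and mt-Tm, held most of that with 19789, 17634 and 12203 of 70424 counts. The markers of CA1 pyramidal neurons, Wfs1, Fibcd1, Mpped1, Spink8, Pou3f1 and Man1a, were all above 0 in every library, from 3.72 CPM for Spink8 at its lowest to 524 CPM for Mpped1 at its highest. Oligodendrocyte markers were present too, with Mbp at 1552 to 3619 CPM, so the dissected tissue holds several cell types. CPM is the count scaled to library totals of equal size. For the members, Gm28438 and the named nuclear genes the totals were adjusted by TMM factors, and for the cell type markers and their sums they were not. In bulk tissue, fewer cells of a type and less RNA per cell cannot be told apart, and the same holds for fewer mitochondria and less RNA per mitochondrion.

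Before the groups are compared, 4 libraries need to be named. On the first principal component of 16989 nuclear genes, computed without the mitochondrial ones, wildtype vehicle 2 and vorinostat 6, 7 and 9 were at 28.9 to 49.4, and the other 24 libraries were at -16.8 to 3.84. This component held 20.5% of the variance. On the first component of only the most variable nuclear genes, with 36.9% of their variance, the 4 lay at -13.2 to 12.2. They were then within the range of the other 24, -16.8 to 16.0, so the split depends on the genes used. The same 4 libraries had the highest share of the 9 mitochondrial genes, 6.37 to 7.46% of counts, against 2.83 to 4.10% in the other 24. None of the 9 transgenic vehicle libraries was among them, 3 of the 9 vorinostat libraries were, and 1 of the 10 wildtype vehicle libraries was. The fold changes of the members, of the nuclear copy Gm28438 and of the named nuclear genes are given with and without them. Since 3 of the 4 are the highest vorinostat libraries, leaving them out lowers the vorinostat group by construction.

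Of the summed cell type markers, only those of erythroid cells set the 4 libraries fully apart. The 5 erythroid markers summed to 79.2 to 142 CPM in the 4 libraries, against 17.9 to 55.7 CPM elsewhere, with no overlap, and of the 5 Hba-a2 was at or near 0 throughout. The 7 CA1 markers together were at 970 to 1230 CPM in the 4 and at 1077 to 1500 CPM in the others, and the 7 microglia markers at 301 to 364 against 236 to 331 CPM. These ranges overlap, as do those of CA3 and dentate neurons, choroid plexus, astrocytes, endothelium and oligodendrocytes. The oligodendrocyte sum was at 4349 to 7518 CPM in the 4 and at 3299 to 7654 CPM in the others. Total counts were 20319545 to 22636248 in the 4 libraries, within the range of the others. The part of blood, cell types or RNA quality in the mitochondrial levels was not tested, and RNA quality scores were not used here.

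The members did not differ to the same degree between the 4 libraries and the other 24. The geometric mean CPM of the 4 was 1.91-fold that of the 24 for both mt-Nd1 and mt-Nd4, 1.87-fold for mt-Rnr2, 1.84-fold for mt-Rnr1 and mt-Cytb, 1.72-fold for mt-Co1, 1.66-fold for mt-Nd2, 1.49-fold for mt-Nd5 and 1.46-fold for mt-Nd6. For all 9 genes, each of the 4 libraries lay above the other 24, as the plot of the members by library shows. The share of all genes that separate the libraries in this way was not counted. The 4 were also the libraries with the highest share of these 9 genes, so such a separation is little more than that share restated. These folds describe 4 libraries that were noticed for their values, and no test is given for them.

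The order of the members within a library can be read only per length. Levels were taken per kilobase of windows not found in an annotated transcript of another gene. The median over the 28 libraries was highest for mt-Co1 (complex IV), at 13013 CPM per kilobase. It was 6713 for mt-Cytb (complex III), 6230 for mt-Nd4, 6153 for mt-Nd1 and 3997 for mt-Nd2 (all complex I), 2466 for mt-Nd6, 2419 for mt-Rnr1, 2094 for mt-Rnr2 and 1821 CPM per kilobase for mt-Nd5. Neighbours in this order were in the same order in all 28 libraries except for 3 pairs. Gene mt-Nd4 was above mt-Nd1 in 14 of 28 libraries and mt-Nd6 above mt-Rnr1 in 11 of 28, so these pairs do not differ beyond their spread, and mt-Rnr2 was above mt-Nd5 in 26 of 28. By annotated length, mt-Cytb led with 6426 CPM per kilobase before mt-Co1 with 6157 and mt-Nd1 with 5838, and mt-Nd4 stood at 2270. The places of mt-Co1 and mt-Nd4 thus turn on how reads in the shared windows were counted. For mt-Co1 these windows are shared with Gm11512 and Gm13340 besides the chromosome 1 copy. Gene mt-Nd5 was lowest either way, at 1637 CPM per kilobase of annotated length.

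The order of the groups is given first for complex I. Gene mt-Nd1 (ENSMUSG00000064341; chrM:2751-3707, plus strand) had lowest, median and highest levels of 4130, 5615 and 11168 CPM in vorinostat libraries, 4583, 5505 and 5990 CPM in transgenic vehicle libraries, and 3743, 5570 and 10465 CPM in wildtype vehicle libraries. Vorinostat 6, 7 and 9, at 8999, 11168 and 10187 CPM, lay above every transgenic vehicle library, and the other 6 lay within or below their range. Gene mt-Nd2 (ENSMUSG00000064345; chrM:3914-4951, plus strand) had 3017, 3849 and 6582 CPM with vorinostat, 2958, 3580 and 4041 CPM in transgenic vehicle and 2543, 3616 and 5669 CPM in wildtype vehicle libraries. The medians of the 3 groups lay close together for both genes, and the groups overlapped.

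Gene mt-Nd4 (ENSMUSG00000064363; chrM:10167-11544, plus strand) had 2574, 3135 and 6645 CPM with vorinostat, 2669, 3202 and 3323 CPM in transgenic vehicle and 2205, 3109 and 5709 CPM in wildtype vehicle libraries. Gene mt-Nd5 (ENSMUSG00000064367; chrM:11742-13565, plus strand) had 2719, 2994 and 5229 CPM with vorinostat, 2531, 2858 and 3240 CPM in transgenic vehicle and 2333, 3000 and 3745 CPM in wildtype vehicle libraries. The vorinostat median of mt-Nd4 was below that of transgenic vehicle, although its mean was higher. Gene mt-Nd6 (ENSMUSG00000064368; chrM:13552-14070, minus strand), the single mRNA of the light strand, had 931, 1088 and 1844 CPM with vorinostat, 948, 1082 and 1230 CPM in transgenic vehicle and 806, 1177 and 1550 CPM in wildtype vehicle libraries. Its vorinostat and transgenic vehicle medians were both below the wildtype one, within the spread of each group.

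For complex III, mt-Cytb (ENSMUSG00000064370; chrM:14145-15288, plus strand) had 6032, 7259 and 14521 CPM with vorinostat, 6205, 7359 and 7879 CPM in transgenic vehicle and 5420, 7346 and 12749 CPM in wildtype vehicle libraries. For complex IV, mt-Co1 (ENSMUSG00000064351; chrM:5328-6872, plus strand) had 7928, 9481 and 17248 CPM with vorinostat, 8168, 9455 and 9979 CPM in transgenic vehicle and 7116, 9568 and 15394 CPM in wildtype vehicle libraries. For both, vorinostat 6, 7 and 9 and wildtype vehicle 2 were the 4 highest libraries, and the medians of the 3 groups lay close together.

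The small ribosomal RNA mt-Rnr1 (ENSMUSG00000064337; chrM:70-1024, plus strand) had 1757, 2185 and 4600 CPM with vorinostat, 1777, 2307 and 2689 CPM in transgenic vehicle and 1656, 2177 and 3405 CPM in wildtype vehicle libraries. The large one, mt-Rnr2 (ENSMUSG00000064339; chrM:1094-2675, plus strand), had 2494, 3332 and 6304 CPM with vorinostat, 2613, 3338 and 3704 CPM in transgenic vehicle and 2285, 3169 and 5245 CPM in wildtype vehicle libraries. The transgenic vehicle median was the highest of the 3 for both rRNAs, and again the groups overlapped. Within the wildtype group, library 6 was the lowest of all 28 libraries for all 9 genes.

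**Figure D2:**
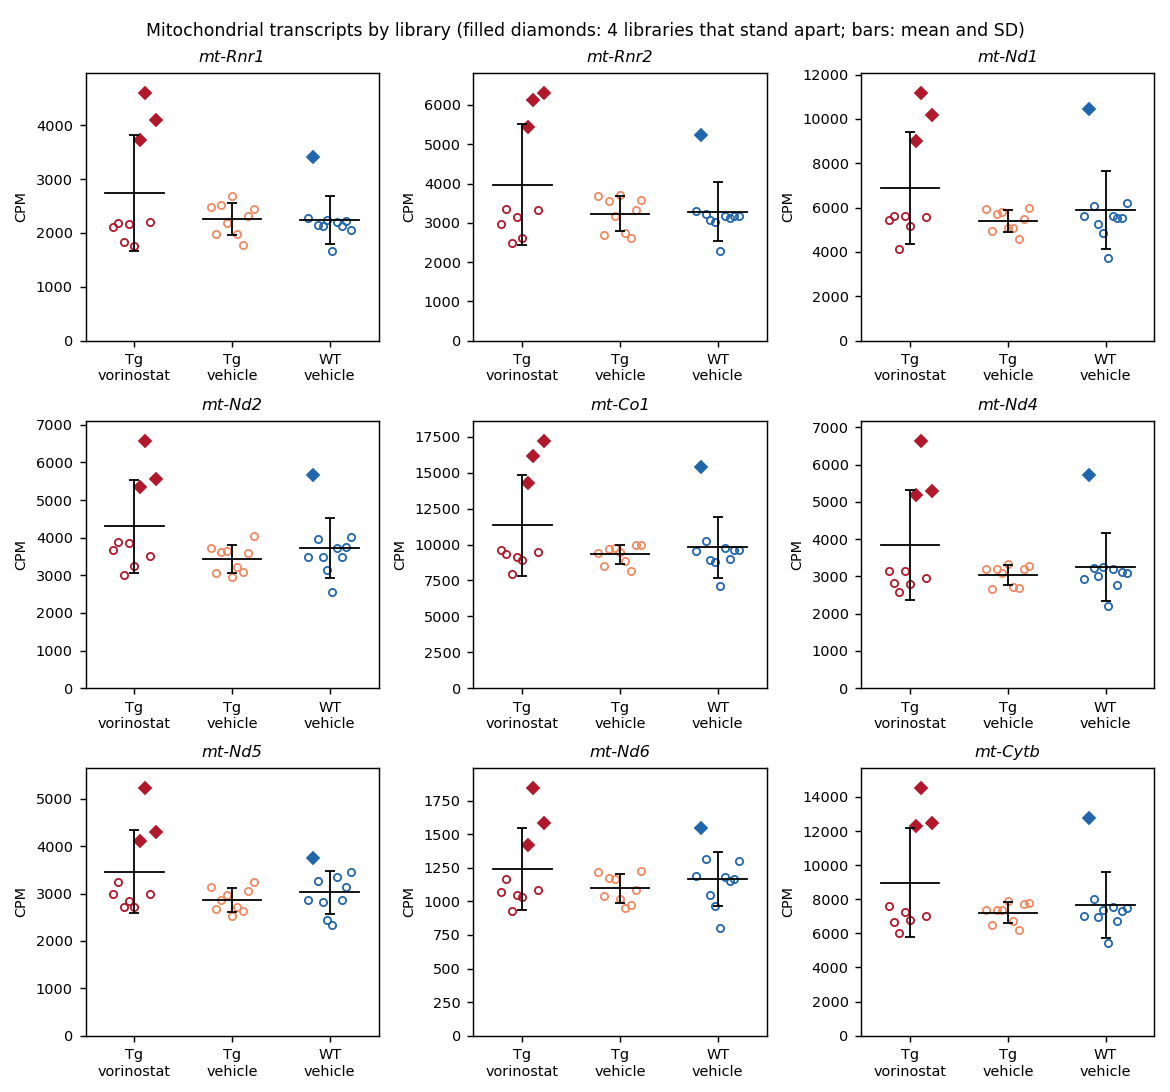
CPM of the 9 mitochondrial genes (y axis, from 0) in each library, for transgenic vorinostat, transgenic vehicle and wildtype vehicle libraries, with the group mean as a line and the SD as a bar. Filled diamonds are wildtype vehicle 2 and vorinostat 6, 7 and 9, which lie above the open circles in every panel.

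Vorinostat was compared with vehicle in transgenic mice, which asks how the drug bears on CA1 in this model. With vorinostat, all 9 members had positive log2 fold changes, from 0.18 (SE 0.114) for mt-Nd6 to 0.35 (SE 0.164) for mt-Nd1, with a median of 0.30. For mt-Nd1 this is 1.27-fold, with a 95% interval of 1.02 to 1.59. Of all genes tested, 50.9% were positive, with a median of 0.00. None of the 9 passed an adjusted p of 0.05 (edgeR quasi-likelihood test, Benjamini-Hochberg adjustment, smallest adjusted p = 0.345), and 0 of 17009 genes did (0%). Of the 9, 6 had an unadjusted p below 0.05, against 14.4% of all genes (2449 genes).

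Members of complex I ran from 0.18 to 0.35, with mt-Nd2 at 0.32 (SE 0.132), mt-Nd4 at 0.34 (SE 0.162) and mt-Nd5 at 0.27 (SE 0.109). Genes mt-Cytb and mt-Co1 were at 0.32 (SE 0.151) and 0.29 (SE 0.133), and the rRNAs mt-Rnr1 and mt-Rnr2 at 0.28 (SE 0.158) and 0.30 (SE 0.162). These values rest on 3 libraries. For every member, vorinostat 6, 7 and 9 were above the highest transgenic vehicle library and the other 6 vorinostat libraries were not. These 3 were among the 4 libraries with the highest share of the 9 genes, so this separation is little more than that share restated. The share of all genes with the same pattern was not counted. Without the 4 libraries that stand apart, the log2 fold changes ran from -0.15 for mt-Rnr1 to 0.03 for mt-Nd2, 2 of 9 were positive against 48.3% of all genes, and the smallest adjusted p was 0.966. At an unadjusted p below 0.05 were then 0 of 9, against 3.84% of all genes. The interval of mt-Nd1 without them, -0.21 to 0.12 on the log2 scale, contains 0 and lies below the estimate from all libraries.

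Transgenic mice on vehicle were compared with wildtype mice on vehicle, which asks how CA1 differs in this heart failure model. The members had log2 fold changes between -0.12 (SE 0.160) for mt-Nd1 and 0.01 (SE 0.154) for mt-Rnr1, with a median of -0.09 and 1 of 9 positive, against 50.1% of all genes. None passed in the edgeR test, with every adjusted p at 1, and 0 of 17009 genes did (0%). At an unadjusted p below 0.05 were 0 of 9 members and 1.33% of all genes (227 genes). Genes mt-Nd2, mt-Nd4, mt-Nd5 and mt-Nd6 were at -0.12 (SE 0.128), -0.10 (SE 0.158), -0.08 (SE 0.107) and -0.09 (SE 0.111). Genes mt-Cytb, mt-Co1 and mt-Rnr2 were at -0.09 (SE 0.147), -0.07 (SE 0.130) and -0.02 (SE 0.157).

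No transgenic vehicle library lay outside the wildtype range for any member. Wildtype libraries 6 and 2 set the ends of that range, and library 6 was the lowest of all 28 for every member. The overlap therefore says little about how alike the 2 groups are, and the share of all genes with it was not counted. The wildtype mean was set in part by library 2, at the top for every member. When the 4 libraries were left out, the log2 fold changes ran from -0.04 to 0.10, with 6 of 9 positive against 52.7% of all genes, and the interval of mt-Nd1 was -0.14 to 0.16. At an unadjusted p below 0.05 were then 0 of 9 members, against 2.38% of all genes. Without wildtype vehicle 2 alone, mt-Nd1 was at 0.01 and mt-Rnr1 at 0.09. Without wildtype vehicle 6 alone, the library with the lowest levels, mt-Nd1 was at -0.18 and mt-Rnr1 at -0.03.

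Vorinostat-treated transgenic mice were also set against wildtype mice on vehicle, a comparison that shares its samples with those above. All 9 members were positive, from 0.09 (SE 0.111) for mt-Nd6 to 0.29 (SE 0.154) for mt-Rnr1, with a median of 0.23, against 51.7% of all genes positive. None passed in the edgeR test (smallest adjusted p = 0.408), and 0 of 17009 genes did (0%), while 0 of 9 members and 12.6% of all genes (2141 genes) had an unadjusted p below 0.05. The other members were at 0.28 (mt-Rnr2, SE 0.157), 0.24 (mt-Nd4, SE 0.158), 0.23 (mt-Nd1, SE 0.160), 0.23 (mt-Cytb, SE 0.147), 0.21 (mt-Co1, SE 0.130), 0.21 (mt-Nd2, SE 0.128) and 0.19 (mt-Nd5, SE 0.107). Wildtype vehicle 2 lay within the range of vorinostat 6, 7 and 9, or close below it. Left without the 4 libraries, the values ran from -0.10 for mt-Nd6 to 0.01 for mt-Nd2, with 1 of 9 positive against 49.5% of all genes, and 0 of 9 against 4.17% at an unadjusted p below 0.05. The summed erythroid markers also differed between these groups among the other libraries, at 36.3 to 55.7 CPM in the 6 vorinostat libraries and 21.2 to 35.6 CPM in the 9 wildtype vehicle libraries, with no overlap, and their part in the result was not tested.

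The fold changes of the members had a larger SE than the median gene, in spite of their high counts. The SE takes in the spread between libraries and not only the counting error. The median SE of the members' log2 fold changes was 0.147 to 0.151 over the 3 comparisons, against 0.0862 to 0.0885 over all genes. It was 0.0710 to 0.0797 for the members without the 4 libraries, and the value over all genes without them is not given here. Differences above these errors did not pass either. With vorinostat against transgenic vehicle, mt-Nd5 at 0.27 (SE 0.109) had an edgeR adjusted p of 0.345. The smallest difference that these libraries could detect was not computed.

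**Figure D3:**
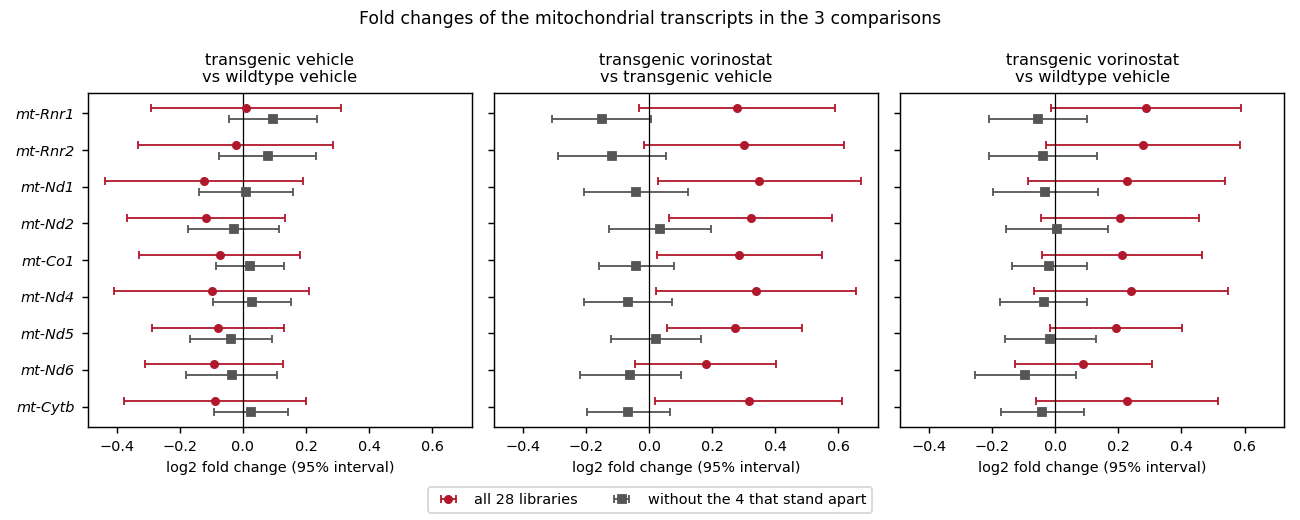
Log2 fold change of each mitochondrial gene with its 95% interval (x axis) in the 3 comparisons, from all 28 libraries (red circles) and without the 4 libraries that stand apart (grey squares). In both vorinostat comparisons the red values are all above 0, from 0.18 to 0.35 and 0.09 to 0.29, and the grey ones lie around 0, from -0.15 to 0.03 and -0.10 to 0.01.

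The members moved together over the libraries, some pairs more closely than others. The SD of log2 CPM over the 24 libraries that do not stand apart ran from 0.120 for mt-Co1 to 0.181 for mt-Rnr2. Of the 36 pairs of members, the log2 ratio of mt-Nd4 to mt-Cytb was the steadiest, with an SD of 0.0360 over the 24 libraries and 0.0436 over all 28. The ratio of mt-Rnr1 to mt-Nd5 was the least steady, with an SD of 0.177 and 0.197. Genes mt-Nd4 and mt-Cytb are also the 2 members whose stop codon is not fully encoded, as the 3′ ends above show. A link between this and their steady ratio was not tested. Over all 28 libraries mt-Nd4 held 7.40 to 9.12% of the members' counts and mt-Cytb 17.4 to 20.4%.

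Each member's share of the members' counts differed little between groups. For mt-Co1 it averaged 24.4 ± 1.09% with vorinostat, 24.6 ± 0.593% in transgenic vehicle and 24.5 ± 0.423% in wildtype vehicle libraries (SD, n = 9, 9 and 10). For mt-Nd6 it averaged 2.72 ± 0.258% with vorinostat, 2.90 ± 0.158% in transgenic vehicle and 2.94 ± 0.247% in wildtype vehicle libraries. Both rRNAs together were 12.4 to 16.5% of the members' counts, with medians of 14.9% in the 4 libraries and 14.0% in the other 24.

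Ratios within a library need no scaling between libraries, and 4 of them were tested in the 3 comparisons with two-sided exact permutation tests, adjusted over the 12 tests. The ratio of mt-Nd6 to mt-Cytb sets the light strand mRNA against its heavy strand neighbour. Its lowest, median and highest values were 0.115, 0.144 and 0.174 with vorinostat, 0.130, 0.158 and 0.166 in transgenic vehicle, and 0.122, 0.158 and 0.174 in wildtype vehicle libraries. The 4 libraries that stand apart had the 4 lowest ratios, at 0.115 to 0.127, against 0.130 to 0.174 in the other 24. In log2 units the vorinostat mean was 0.10 below the transgenic vehicle mean, with 6 of 9 vorinostat libraries below it (difference -0.10, exact permutation p = 0.211, adjusted p = 0.808). Against wildtype vehicle the vorinostat mean was lower as well (difference -0.11, exact permutation p = 0.181, adjusted p = 0.808). The difference from transgenic vehicle was 0.00911 once the 4 libraries were left out.

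The ratio of mt-Rnr2 to mt-Rnr1 had medians of 1.46 with vorinostat, 1.45 in transgenic vehicle and 1.45 in wildtype vehicle libraries, over a range of 1.33 to 1.54 in all. As background, both rRNAs come from the same stretch of the heavy strand transcript. The ratio of mt-Rnr2 to mt-Nd1, the next mRNA, had medians of 0.594 with vorinostat, 0.597 in transgenic vehicle and 0.570 in wildtype vehicle libraries. Its highest value, 0.729, was in transgenic vehicle 5, which also had the highest ratio of mt-Cytb to mt-Nd1, at 1.55. That last ratio, of the last to the first mRNA on the heavy strand, had medians of 1.30 with vorinostat, 1.32 in transgenic vehicle and 1.33 in wildtype vehicle libraries. None of the 12 differences passed (smallest exact permutation p = 0.181, smallest adjusted p = 0.808). The log2 differences of these 3 ratios ran from -0.05 to 0.07.

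**Figure D4:**
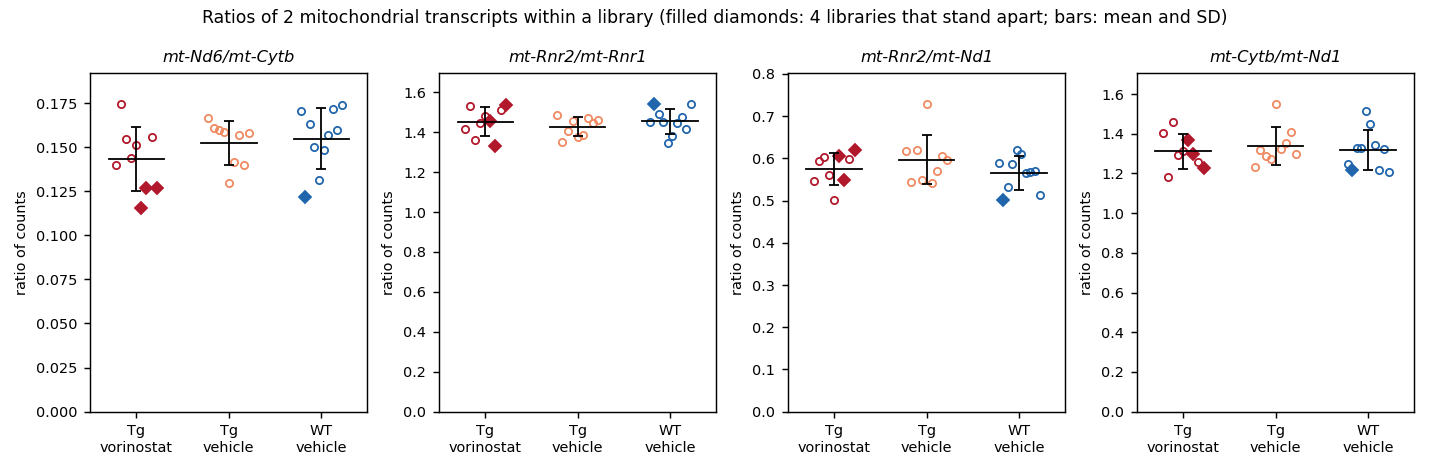
Ratio of the counts of 2 mitochondrial genes within each library (y axis, from 0) for transgenic vorinostat, transgenic vehicle and wildtype vehicle libraries, with the group mean as a line and the SD as a bar. The 4 filled diamonds are the libraries that stand apart, with the lowest mt-Nd6 to mt-Cytb ratios, 0.115 to 0.127, and transgenic vehicle 5 is the highest point for mt-Rnr2 to mt-Nd1, at 0.729.

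Among the 7 nuclear copies on chromosome 1, Gm28438, the copy of mt-Nd3, had 121 to 357 counts in every library, and the other 6 had 0 to 20. Its lowest, median and highest levels were 6.38, 9.85 and 15.3 CPM with vorinostat, 6.07, 8.06 and 10.4 CPM in transgenic vehicle, and 5.07, 8.77 and 15.6 CPM in wildtype vehicle libraries. The 4 libraries that stand apart had its 4 highest levels, at 12.4 to 15.6 CPM, against 5.07 to 11.96 CPM in the other 24. Per 10000 counts of the 7 mitochondrial mRNAs it had 2.08 to 3.40 counts, with medians of 2.55 in the 4 libraries and 2.48 in the other 24. Its log2 fold changes were 0.35 (SE 0.171) for vorinostat against transgenic vehicle, -0.21 (SE 0.168) for transgenic against wildtype vehicle and 0.14 (SE 0.166) for vorinostat against wildtype vehicle. None passed (edgeR adjusted p = 0.346, 1 and 0.674). Once the 4 libraries were left out, the values in the same comparisons were 0.0749, -0.0887 and -0.0138, so the third turned direction. Of the windows of mt-Nd3, 98% are shared with it, but the other 6 copies also share windows with their genes and had 0 to 20 counts. Whether the reads of Gm28438 come from the pseudogene or from mt-Nd3 was not tested.

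**Figure D5:**
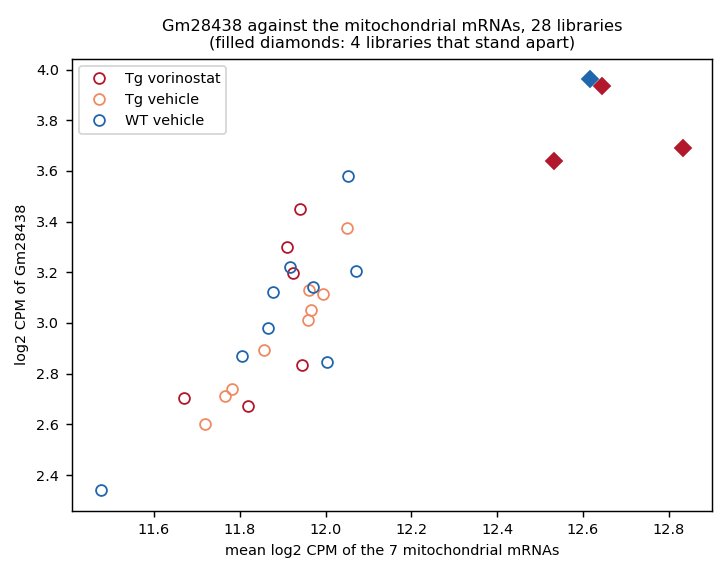
Log2 CPM of Gm28438, the chromosome 1 copy of mt-Nd3 (y axis), against the mean log2 CPM of the 7 mitochondrial mRNAs (x axis) in each of the 28 libraries, coloured by group. The 4 filled diamonds at the upper right are the libraries that stand apart, at 12.4 to 15.6 CPM of Gm28438.

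The nuclear genes most like the mitochondrial mRNAs were sought by the correlation of log2 CPM with the mean of the 7 mRNAs, after group means were taken off, among 16989 genes. The members and the nuclear genes are counted in the same libraries and divided by the same totals, and the genes were chosen for the correlation, so it is given as a description. Over all 28 libraries 1940 genes had a correlation above 0.8 in size, while over the 24 that do not stand apart 6 did. The highest were Ap3m1 (a subunit of an adaptor complex for vesicle sorting), Zfand6, Npm1 (nucleophosmin, a nucleolar protein), 3830406C13Rik and Skp1a (a subunit of SCF ubiquitin ligases), and the lowest Arvcf (a catenin), Pex5 (the peroxisomal import receptor), Ctc1 (a telomere maintenance protein), Upf1 (the helicase of nonsense-mediated decay) and Zdhhc8 (a palmitoyltransferase).

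Over these 24 libraries the highest were Eid1 (an inhibitor of the acetyltransferase p300) with r = 0.83 and rho = 0.76, Gm28438 with r = 0.83 and rho = 0.71, Ube2a (a ubiquitin-conjugating enzyme) with r = 0.81, Rnf138 (a ubiquitin ligase) with r = 0.81 and Zfp994 with r = 0.80. Among the lowest were Arvcf with r = -0.87 and rho = -0.90, Tuba4a (an alpha tubulin) with r = -0.81, Yif1b with r = -0.77 and Atcay (caytaxin) with r = -0.76. With the 2 libraries farthest from the median of the mitochondrial mRNAs left out, Eid1 was at 0.77, Gm28438 at 0.73, Rnf138 at 0.61 and Arvcf at -0.86. Gene Arvcf was thus the lowest in both sets, at r = -0.96 over the 28 libraries.

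Nuclear genes that act on the mitochondrial genome and its RNA were counted by lists. Vorinostat was compared with vehicle in transgenic mice first. Of 15 genes of mitochondrial DNA replication and maintenance, 7 were positive, of 11 of mitochondrial transcription 9, of 23 of RNA processing and stability 17, of 12 regulators of biogenesis 6 and of 77 mitochondrial ribosomal proteins 63, against 50.9% of all genes. The list medians were -0.02, 0.14, 0.07, -0.02 and 0.08 in log2 units. None of these genes passed in the edgeR test, and 3, 4, 4, 2 and 10 of them had an unadjusted p below 0.05, against 14.4% of all genes. Without the 4 libraries, 8 of 15, 4 of 11, 12 of 23, 7 of 12 and 16 of 77 were positive, with medians of 0.01, -0.01, 0.01, 0.02 and -0.04, against 48.3% of all genes, so the medians of 4 of the 5 lists turned direction, the RNA processing list being the exception.

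The genes with the smallest p of each list are given by role. For DNA maintenance, Primpol (a primase and polymerase) was at 0.19 (SE 0.0722), Rrm2b (a subunit of ribonucleotide reductase) at 0.21 (SE 0.0888) and Polg (the mitochondrial DNA polymerase) at -0.16 (SE 0.0743). For transcription, Mterf2 and Mterf3 (of the mitochondrial termination factor family) were at 0.27 (SE 0.0954) and 0.17 (SE 0.0738), and Polrmt (the RNA polymerase) at -0.19 (SE 0.0921), with 32.9 ± 7.21 CPM with vorinostat and 37.6 ± 1.81 CPM in transgenic vehicle (SD, n = 9 each). For RNA processing, Pnpt1 (polynucleotide phosphorylase) was at 0.28 (SE 0.0920), with 30.1 ± 5.51 CPM with vorinostat and 24.7 ± 2.21 CPM in transgenic vehicle (SD, n = 9 each). Elac2 (the 3′ tRNA processing ribonuclease Z) was at -0.14 (SE 0.0562) and Ptcd3 (a protein of the small mitochondrial ribosomal subunit) at 0.18 (SE 0.0723). Among regulators of biogenesis, Perm1, Gabpa and Pprc1 were at -0.23 (SE 0.104), 0.14 (SE 0.0633) and -0.18 (SE 0.117), and among ribosomal proteins Mrpl51, Mrps10 and Mrps14 at 0.17 (SE 0.0613), 0.14 (SE 0.0579) and 0.20 (SE 0.0830). Their edgeR adjusted p were 0.345 to 0.419. With the 4 libraries left out, the values were smaller in size for all 15 genes, and Pprc1 turned direction, at 0.0258. Among the others Primpol was then at 0.132, Mterf2 at 0.0789, Polrmt at -0.0105, Pnpt1 at 0.108, Elac2 at -0.0298, Perm1 at -0.134 and Mrps10 at 0.0627, and the smallest adjusted p was 0.966.

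In transgenic vehicle against wildtype vehicle libraries, 6 of 15, 5 of 11, 9 of 23, 5 of 12 and 25 of 77 genes of the same lists were positive, against 50.1% of all genes, with a lowest list median of -0.03 and none past the threshold, and 0 of each list had an unadjusted p below 0.05, against 1.33% of all genes. Without the 4 libraries, 8 of 15, 5 of 11, 10 of 23, 7 of 12 and 41 of 77 were positive, against 52.7% of all genes. The genes with the smallest p were Rnaseh1 (ribonuclease H1) at -0.09 (SE 0.0580), Mterf2 at -0.11 (SE 0.0934), Rbfa (a ribosome binding factor) at -0.08 (SE 0.0554), Sirt1 (a deacetylase) at 0.11 (SE 0.0817) and Mrps15 at -0.08 (SE 0.0531), 1 for each list, with edgeR adjusted p at 1. These 5 were at -0.0883, -0.0541, -0.0649, 0.136 and -0.0507 with the 4 libraries left out.

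In vorinostat against wildtype vehicle libraries, 8 of 15, 10 of 11, 15 of 23, 5 of 12 and 60 of 77 were positive, against 51.7% of all genes, and without the 4 libraries 7 of 15, 5 of 11, 13 of 23, 9 of 12 and 20 of 77, against 49.5%. None passed in the edgeR test, and 3, 3, 3, 1 and 7 genes of the lists had an unadjusted p below 0.05, against 12.6% of all genes. The smallest p of each list were those of Tk2 (mitochondrial thymidine kinase) at -0.11 (SE 0.0417), Mterf3 at 0.18 (SE 0.0720), Elac2 at -0.16 (SE 0.0549), Perm1 at -0.24 (SE 0.102) and Mrps10 at 0.18 (SE 0.0565). Gene Tfam, the packaging factor of mitochondrial DNA and a transcription factor, averaged 37.0 ± 5.47 CPM with vorinostat (SD, n = 9) and 33.5 ± 2.64 CPM in wildtype vehicle libraries (SD, n = 10), at 0.14 (SE 0.0639). With the 4 libraries left out, Tk2 was at -0.0876, Mterf3 at 0.0488, Elac2 at -0.0757, Perm1 at -0.177, Mrps10 at 0.115 and Tfam at 0.0206, and the smallest adjusted p was 0.929.

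The authors' deposited table of adjusted expression held all 9 members among 18014 genes, in log units whose base was read as log2. For mt-Co1 the 4 libraries were at 13.8 to 14.1 in the authors' deposited table and the other 24 at 13.4 to 13.9, so that they overlapped. The authors' deposited table put wildtype vehicle 6 highest of the 10 wildtype libraries for 5 members and among the top 2 for 8, although its counts gave the lowest CPM of all 28 libraries for all 9. For mt-Cytb it had 5420 CPM from the counts and 13.6 in the authors' deposited table. Over 12021 genes, the adjusted values of 22 of 28 libraries correlated best with the counts of the same library, and those of 6 with another library. For wildtype vehicle 6 the correlation with its own counts was -0.43. The sources used here do not state which terms the adjustment removed, and the cause of this mismatch was not tested.

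The authors' deposited table of coexpression modules placed 7 members in the module named purple, of 2666 genes, and mt-Nd4 and mt-Cytb in the module named black, of 1924 genes. In the authors' deposited table the membership score, a correlation with the module, ran from 0.813 for mt-Nd6 to 0.910 for mt-Nd5 in the member's own module. Genes mt-Rnr1 and mt-Co1 had a higher score in black, 0.891 and 0.867 in the authors' deposited table, than in their own module, 0.822 and 0.866. With the module named green, every member had a negative score in the authors' deposited table, from -0.922 for mt-Co1 to -0.798 for mt-Nd6. The 2 genes set apart in black are the pair with the steadiest ratio in the counts. Modules and ratios both come from this series, so the match is not separate evidence.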

How the data were processed

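RNA-seq of hippocampal CA1 was made from poly(A)-selected RNA with an unstranded kit and single-end reads of 50 bases, per the labels' protocols. The submitters' processing notes name FastQC 0.11.5, STAR 2.5.2b, featureCounts of Subread 1.5.1 and the build mm10. Not given in the sources used here were the release of the annotation, whether strand was used, and what was done with reads matching several places. Raw counts deposited by the authors per gene and library were used for every main test. The authors also deposited adjusted expression values, read here as log2, and a table of coexpression modules. The deposited module table gives membership scores, and each score has the authors' p-value, which was not used.

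Identifiers were matched to symbols for 48349 of 48709 genes (99.3%). Totals ran from 20230085 to 33191857 counts, and no pair of libraries within a group was identical in 117 pairs compared. Genes were filtered with edgeR's filterByExpr (minimum count 10, minimum total 15), which left 17009. Counts were scaled by TMM and fitted over all 28 libraries with group means, without covariates, by edgeR 4.0.16 quasi-likelihood tests (R 4.3.3), with Benjamini-Hochberg adjustment over all genes tested and a threshold of 0.05. The code was tested on simulated data. Ratios of counts were tested by exact permutation, coded in Python 3.11.15 with numpy 2.4.6. Rank correlations (rho) used scipy 1.17.1. Alternatives used DESeq2 1.42.0, limma 3.58.1, other scalings and filters, blocks by the numbers in the labels, and each library left out. Leaving out the 4 libraries that stand apart was chosen with earlier results known, and the fits without a block on the libraries of the blocks were chosen after seeing the data.

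The members and the gene lists were chosen with earlier results of these data known. The genes named from each list are the 3 with the smallest p, or the first of them. The genes named for likeness are the 5 highest and 5 lowest correlations. The values of 1 of these genes, and of 1 CA1 marker that is part of the summed level, are not reported here. Sequences are from GENCODE M21 transcripts of GRCm38.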

Additional observations from a re-analysis of the deposited data

Results flagged for a closer look

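A library far from the rest of its group was sought in 42 groups of 9 or 10 values, and chance flags about 1 in 20 such groups. The members moved together, so their groups are not separate trials. The search took the gap beside the most extreme value, so it can miss several libraries that lie high together. Of the 8 found, 7 were wildtype vehicle 2, the highest of 10 wildtype libraries. It had 10465 CPM for mt-Nd1, 5669 for mt-Nd2, 5709 for mt-Nd4, 12749 for mt-Cytb, 15394 for mt-Co1, 3405 for mt-Rnr1 and 5245 CPM for mt-Rnr2. The other was transgenic vehicle 5, with a ratio of mt-Rnr2 to mt-Nd1 of 0.729. Counts outside the main measurement were found for Gm28438, with at least 121 in every library, and for the mitochondrial tRNAs, with at least 1454 in sum.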

How the results depend on the processing

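Of 1107 alternative values for the members, 0 passed the threshold, 38 reversed, and the smallest adjusted p was 0.0692, from limma on the authors' adjusted values. Without the 4 libraries that stand apart, transgenic against wildtype vehicle gave 0.00926 for mt-Nd1, 0.0297 for mt-Nd4, 0.0246 for mt-Cytb, 0.0224 for mt-Co1 and 0.0781 for mt-Rnr2. Vorinostat against transgenic vehicle gave -0.0415 for mt-Nd1, -0.0670 for mt-Nd4, -0.0594 for mt-Nd6, -0.0664 for mt-Cytb, -0.0410 for mt-Co1, -0.151 for mt-Rnr1 and -0.118 for mt-Rnr2. Vorinostat against wildtype vehicle gave -0.0322 for mt-Nd1, -0.0372 for mt-Nd4, -0.0156 for mt-Nd5, -0.0954 for mt-Nd6, -0.0418 for mt-Cytb, -0.0186 for mt-Co1, -0.0542 for mt-Rnr1 and -0.0396 for mt-Rnr2. For mt-Rnr1, transgenic against wildtype vehicle was -0.000407 with a replicate block by the numbers in the descriptions, -0.00355 over the libraries of the title block without a block, and -0.0170 in the authors' adjusted values.

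Ratios that reversed without the 4 libraries were mt-Nd6 to mt-Cytb at 0.00911 (vorinostat against transgenic vehicle), and mt-Rnr2 to mt-Rnr1 at 0.0128 and mt-Rnr2 to mt-Nd1 at -0.0145 (both vorinostat against wildtype vehicle). With medians, mt-Rnr2 to mt-Rnr1 was 0.00782 for vorinostat against wildtype vehicle and mt-Cytb to mt-Nd1 was -0.0105 for transgenic against wildtype vehicle. With the title block, mt-Nd6 to mt-Cytb was 0.00208 for transgenic against wildtype vehicle and mt-Rnr2 to mt-Rnr1 was 0.00727 for vorinostat against wildtype vehicle.

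With 1 library left out at a time, transgenic against wildtype vehicle ran from -0.180 to 0.00738 for mt-Nd1, -0.149 to 0.0280 for mt-Nd4, -0.134 to 0.0228 for mt-Cytb, -0.117 to 0.0206 for mt-Co1, -0.0319 to 0.0947 for mt-Rnr1 and -0.0709 to 0.0763 for mt-Rnr2, lowest without wildtype vehicle 6 and highest without wildtype vehicle 2. Gene mt-Nd6 ran from -0.00430 to 0.14 for vorinostat against wildtype vehicle, lowest without vorinostat 7. The ratios ran from -0.0552 to 0.0110 (mt-Nd6 to mt-Cytb) and -0.00398 to 0.0454 (mt-Cytb to mt-Nd1) for transgenic against wildtype vehicle, and from -0.0143 to 0.0134 (mt-Rnr2 to mt-Rnr1) and -0.0255 to 0.0167 (mt-Cytb to mt-Nd1) for vorinostat against wildtype vehicle. Over all genes, 0 to 1 passed for vorinostat against transgenic vehicle (1 without vorinostat 3), and 0 to 3 for vorinostat against wildtype vehicle (3 without wildtype vehicle 2, 1 without wildtype vehicle 5).

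DESeq2 called 1 gene for vorinostat against transgenic vehicle and the title block 1 gene for vorinostat against wildtype vehicle, neither a member. Libraries that share a number had correlations of -0.339 to 0.408 for title numbers and -0.213 to 0.232 for description numbers. No values for libraries with different numbers are given here, so these correlations cannot show whether the numbers pair the libraries. With the description block, mt-Nd6 to mt-Cytb was -0.107 for vorinostat against transgenic vehicle (exact sign-flip permutation p = 0.0391, adjusted p = 0.469). Apart from the 4 libraries, whose removal lowers the vorinostat mean by construction, the cause of these reversals was not tested.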
